A study of Mus musculus with 4 samples.

Results

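The subject is the nuclear-encoded subunits of the mitochondrial respiratory chain and ATP synthase. Members were all non-control probes whose gene name in the scanner files begins with Nduf, Uqcr, Cox followed by a digit from 4 to 8, or Atp5, together with Sdha, Sdhb, Sdhc and Sdhd. This gave 117 probes for 83 genes, out of 41174 probes on the array. A probe was tested if either genotype's channel showed it well above background on each of the 4 arrays, which held for 106 member probes of 79 genes and for 21859 probes in all. By gene name, 38 genes belong to complex I, 4 to complex II, 7 to complex III, 18 to complex IV and 16 to complex V.

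Complex I oxidises NADH and complex II oxidises succinate, and both pass electrons to ubiquinone. Complex III carries them on to cytochrome c, and complex IV, cytochrome c oxidase, hands them to oxygen. The proton gradient built along the way drives complex V, the ATP synthase. Most subunits are made from nuclear genes that nearly every cell uses, while some complex IV subunits have forms used mainly in muscle or testis.

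RNA came from the posterior end of mouse embryos with 5 somites by the sample labels, or 5 to 6 by the series' design text, cut off at the boundary of the last somite. Embryos with 1 mutant Cdx2 allele and no intact Cdx4 allele (Cdx2+/- Cdx4-/-) were compared with wildtype embryos, each RNA being a pool from 10 embryos. The 2 RNAs were labelled with different dyes and put together on 4 Agilent mouse genome arrays, all on 1 slide. The labels call them replicate 1 (array 1), its dye swap (array 2), replicate 2 (array 3) and its dye swap (array 4), without stating whether these come from separate pools. The sources used here give neither the strain nor how the alleles were made.

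The direction of every ratio is unsettled. For Cdx4, the gene removed in the mutant, the log2 ratio of Cy5 to Cy3 was -2.59, -2.11, 2.82 and 2.42 on arrays 1 to 4, although the labels give arrays 1 and 3 one dye orientation and arrays 2 and 4 the other. Over all tested probes, arrays 1 and 3 correlated at -0.43 and arrays 2 and 4 at -0.43, whereas arrays 1 and 2 correlated at 0.82. Each array was therefore turned so that its Cdx4 ratio is negative, and all further ratios are these aligned ratios. "Higher" and "lower" mean in the mutant, by the labels of arrays 1 and 4. By the labels of arrays 2 and 3 every sign turns, and higher and lower change places. No source used here says whether the Cdx4 probe lies in the removed sequence. Depending on array and dye, 50.6% to 64.9% of spots passed the scanner's background criterion, and 86.8% of the tested members lay among the brightest 25% of all tested probes. In bulk tissue, fewer cells of a type and less RNA per cell cannot be told apart.

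Of all members, only Ndufa11 passed the test. Ndufa11 encodes an accessory subunit in the membrane arm of complex I. Its brighter probe had aligned log2 ratios of 0.67, 0.71, 0.41 and 0.48 on arrays 1 to 4. All 4 values lay above 0, and those of arrays 1 and 2 were the higher ones. The mean was 0.57 ± 0.098 (SE, n = 2 array pairs), a 1.48-fold higher level (95% interval of the log2 ratio 0.36 to 0.77, limma adjusted p = 0.00162). The second Ndufa11 probe gave 0.55, 0.72, 0.13 and 0.26, with a mean of 0.41 ± 0.108 (SE, n = 2, limma adjusted p = 0.0278). It lies at chr17:56402932-56402991 (mm8, plus strand) and the brighter one at chr17:56402942-56403001, so they share 50 of 60 bases and are not independent measurements. Whether these positions are coding or untranslated was not analysed here.

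These 2 probes were the 2 called higher among the 106 tested, and none was called lower, where 2.32% of all tested probes were called higher and 3.35% lower. With the sign turned, 0 members were higher and 2 lower. At an unadjusted p under 0.05 there were 11 member probes above 0 and 0 below, where 8.28% of all tested probes were above and 9.14% below. The test averaged arrays 1 with 2 and 3 with 4, following the labelled replicate numbers, so that a dye difference stays in the spread. The Ndufa11 call was lost without array 1 (log2 ratio 0.58, limma adjusted p = 0.0503), with no filter on dim probes (adjusted p = 0.116), with the arrays taken as labelled (0.008) and with median centring in place of loess (0.98, adjusted p = 0.815). Most calls across the array were lost in these runs too. Those left were 100 higher and 89 lower without array 1, 11 and 5 with no filter, 4 and 29 as labelled and 0 and 0 with median centring. As labelled, the 2 arrays of each pair oppose each other, so a genotype difference cancels in their mean. The run as labelled therefore says nothing of Ndufa11 in particular, and nor does median centring, which left 0 calls across the array.

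The stretch before the Ndufa11 start is shown because it is the only called member. It is RefSeq sequence of build GRCm38.p6, chr17:56717700-56717761 on the plus strand, the 62 bases that separate the start from the neighbouring gene Vmac. Capitals mark the motif CGCATGCG, the core recognised by NRF1, a regulator of many nuclear genes for respiratory subunits.
Ndufa11: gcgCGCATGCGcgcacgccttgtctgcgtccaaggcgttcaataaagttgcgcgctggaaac

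The motif begins 59 bases before the start. Vmac itself, by its single probe, had aligned ratios of 0.13, 0.03, -0.07 and 0.05, with a mean of 0.036 ± 0.095 (SE, n = 2, limma adjusted p = 0.918). On the other side, Nrtn had 0.30, 0.13, 0.41 and 0.34, all above 0, with a mean of 0.29 ± 0.096 (SE, n = 2, limma adjusted p = 0.0857). Both neighbours were chosen after the value of Ndufa11 was seen.

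The other members moved little. Over the 106 tested probes the median aligned log2 ratio was 0.070, beside 0.009 for all tested probes. By array the member median was 0.15, 0.11, 0.031 and 0.044 on arrays 1 to 4, beside -0.008, 0.035, -0.018 and 0.003 for all tested probes. The member median thus lay above that of all probes on each of the 4 arrays, by more on arrays 1 and 2 than on 3 and 4. Above 0 were 81 probes, or 76.4%, beside 53.3% of all tested probes, and 25 were below. The brightest 25% of probes without the members also had a median of 0.009, but loess centres ratios near 0 at each intensity. With median centring in place of loess, which shifts the median of all tested probes to 0.23, the medians were 0.62 for the members and 0.49 for those bright probes. With the sign turned, the member median was -0.070. Of the 79 genes by their brightest probe, Ndufa11 alone had a mean ratio beyond 0.3 in size. The 95% intervals of single probes reached 0.20 to 0.29 to either side of the mean, so in this pairing of the arrays smaller ratios were within the error of a single probe.

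When arrays were instead paired 1 with 3 and 2 with 4, so that each pair balances the dyes, 32 member probes for 26 genes were called higher and 2 lower by limma, where 19.4% of all tested probes were called higher and 18% lower. These 32 had log2 ratios of 0.12 to 0.57, and 23 of them lay above 0 on all 4 arrays. That pairing leaves the spread between labelled replicates out of the error, and its counts across the array were several times larger too. Over the whole set, 38 probes were above 0 on all 4 arrays and 3 below, where 22.5% of all tested probes were above 0 on all 4 and 19.4% below.

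**Figure D1:**
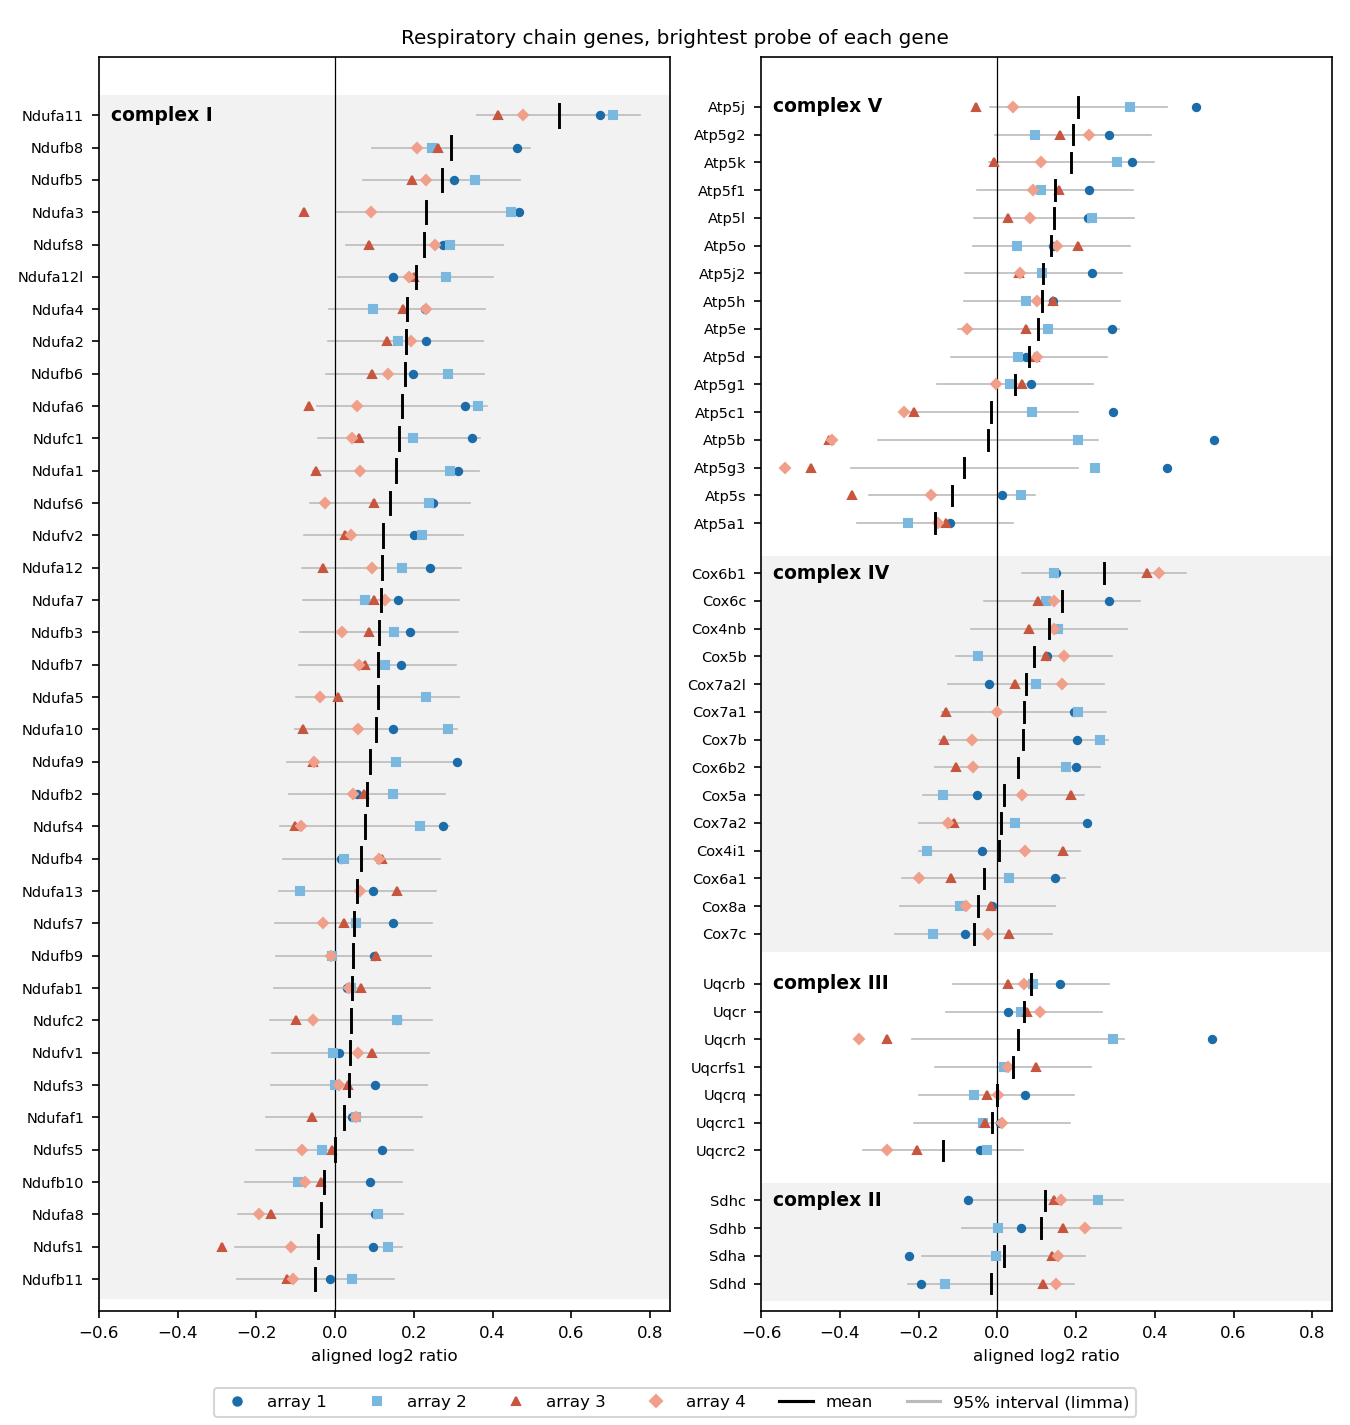
Aligned log2 ratio (x axis) of the tested genes reported here by their brightest probe (y axis), grouped by complex. Points are the 4 arrays, black bars the mean of the array pairs and grey lines the 95% interval from limma. Ndufa11 at the top left, with a mean of 0.57, stands apart from all others, and the points of Atp5b, Atp5g3 and Uqcrh split between arrays 1 and 2 on the right and arrays 3 and 4 on the left.

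Complex I had a median of 0.10 over 53 tested probes, and 33 of its 38 genes lay above 0 by their brightest probe. Its array medians over probes were 0.16, 0.16, 0.032 and 0.040. After Ndufa11, the highest member was Ndufb8, an accessory subunit of the membrane arm, with 0.46, 0.25, 0.26 and 0.21 on arrays 1 to 4. All 4 lay above 0, and the mean of 0.29 ± 0.095 (SE, n = 2) did not pass the test (limma adjusted p = 0.0844). Ndufb5, of the same arm, had 0.30, 0.36, 0.20 and 0.23, again above 0 throughout, with a mean of 0.27 (limma adjusted p = 0.119). At the other end of complex I were Ndufb11, also of the membrane arm, at -0.050, Ndufs1 at -0.042 and Ndufa8 at -0.036.

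The core subunits of complex I that carry the flavin and the iron-sulphur clusters or bind ubiquinone had a median of 0.042 over 7 genes. Ndufs8, which holds iron-sulphur clusters next to the quinone site, was the highest of them with 0.28, 0.29, 0.09 and 0.25. Its mean of 0.23 did not pass (limma adjusted p = 0.212). Ndufv2, an iron-sulphur protein of the NADH-binding module, had a mean of 0.12 and its partner Ndufv1, which binds NADH and the flavin, 0.039. Ndufs7 and Ndufs3, both of the arm that reaches to the quinone site, had means of 0.048 and 0.036. Ndufs1, the largest iron-sulphur protein of the NADH-binding module, had 0.10, 0.14, -0.29 and -0.11, and so was above 0 on arrays 1 and 2 and below on 3 and 4. The 29 accessory subunits had a median of 0.11, with 25 above 0. Ndufa4, first assigned to complex I and now counted with complex IV, had 0.23, 0.10, 0.17 and 0.23, with a mean of 0.18 (limma adjusted p = 0.339). The missing spot of Ndufa5 on array 1 was an outlier, so its mean of 0.11 rests on array 2 alone in the first pair.

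In complex II, succinate dehydrogenase, the arrays split the opposite way. Its median over 5 tested probes was 0.024, with -0.075, 0.001, 0.14 and 0.15 on arrays 1 to 4. Sdhd, a membrane anchor, had -0.20, -0.13, 0.12 and 0.15, below 0 on arrays 1 and 2 and above on 3 and 4. Its fellow anchor Sdhc had -0.075, 0.26, 0.14 and 0.16. Sdhb, the iron-sulphur subunit, was above 0 on all 4 arrays with a mean of 0.11 (limma adjusted p = 0.638). Sdha, the flavoprotein that oxidises succinate, had -0.22, -0.004, 0.14 and 0.15 by its brighter probe and 0.09, 0.21, -0.16 and -0.04 by the other, so its 2 probes ran in opposite directions on all 4 arrays while their means were 0.016 and 0.024.

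In complex III the median over 9 tested probes was 0.023, and the array medians were 0.026, 0.016, -0.026 and 0.012. Uqcrc2, 1 of the large core proteins, had -0.044, -0.026, -0.20 and -0.28. All 4 lay below 0, and the mean of -0.14 ± 0.097 (SE, n = 2) did not pass (limma adjusted p = 0.536). The other core protein, Uqcrc1, had a mean of -0.013, and Uqcrfs1, the Rieske iron-sulphur protein, 0.040. The small subunits Uqcrb, Uqcr (now Uqcr11) and Uqcrq had means of 0.086, 0.067 and -0.002. Uqcrh, the hinge protein that helps cytochrome c to bind, had 0.55, 0.30, -0.28 and -0.35 and a mean of 0.053.

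Complex IV had a median of 0.066 over 16 tested probes, with array medians of 0.15, 0.049, 0.007 and 0.031. Its highest member was Cox6b1, a subunit on the side that faces cytochrome c, with 0.15, 0.14, 0.38 and 0.41. All values lay above 0 and those of arrays 3 and 4 were the larger, unlike Ndufa11, and the mean of 0.27 ± 0.099 (SE, n = 2) did not pass (limma adjusted p = 0.136). Next came Cox6c, with a mean of 0.16 (limma adjusted p = 0.411). The lowest were the small subunits Cox7c at -0.060 and Cox8a at -0.050, Cox8a being below 0 on all 4 arrays.

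Tissue-specific forms of complex IV subunits were mostly dim. Cox4i2, a form of subunit 4 known from lung, was well above background on 1 of 4 arrays in each genotype, as were Cox6a2, used in heart and skeletal muscle, and Cox8c, a testis form. Cox8b, another muscle form, was well above background on 0 of 4. None of these 4 genes could be tested, and no fold is given. Their widely used counterparts were bright and lay near 0, with Cox4i1 at 0.005 and Cox6a1 at -0.035. The 2 other restricted forms were well above background on all 4 arrays in both genotypes. Cox7a1, known from muscle, had 0.20, 0.20, -0.13 and -0.001, with a mean of 0.067 (limma adjusted p = 0.831). Cox6b2, known from testis, had 0.20, 0.18, -0.11 and -0.06, with a mean of 0.052 (limma adjusted p = 0.881). Cox7a2 and Cox7a2l, which stand beside Cox7a1, had means of 0.010 and 0.072. In the same arrays 8 of 12 listed cardiac and skeletal muscle genes could be tested, with 1 called higher (Tnni1, 0.61, limma adjusted p = 0.000634), and 4 of 7 testis and germ line genes, with 0 called and 0 at an unadjusted p under 0.05. Of all tested probes, 2.32% were called higher and 3.35% lower.

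Complex V had a median of 0.096 over 23 tested probes, with array medians of 0.16, 0.088, 0.062 and 0.057. The 7 genes of the stalk and the membrane part other than the c ring (Atp5f1, Atp5h, Atp5j, Atp5j2, Atp5k, Atp5l and Atp5o) all lay above 0, between 0.11 and 0.21, and none was called. Atp5j, part of the peripheral stalk, was the highest with 0.50, 0.34, -0.055 and 0.039. Atp5k, a small membrane subunit, had a mean of 0.19 (limma adjusted p = 0.353). The 5 genes of the catalytic F1 head had a median of -0.017. Atp5a1, the alpha subunit, was the lowest of all members by its brightest probe, with -0.12, -0.23, -0.13 and -0.15, all below 0, and a mean of -0.16 ± 0.094 (SE, n = 2, limma adjusted p = 0.431). Its other probe had 0.026, 0, -0.185 and -0.261, with a mean of -0.105 (limma adjusted p = 0.682). Atp5b, the beta subunit that holds the catalytic sites, had 0.55, 0.21, -0.43 and -0.42 by its brightest probe. Its other tested probes split the opposite way. They had -0.116, -0.281, 0.078 and 0.091, and -0.14, -0.172, 0.247 and 0.331.

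The c ring, which turns with the flow of protons, is made from 3 genes whose mature proteins are the same. Atp5g2 had 0.28, 0.10, 0.16 and 0.23, above 0 on all 4 arrays, with a mean of 0.19 (limma adjusted p = 0.305). Atp5g1 had a mean of 0.044 (limma adjusted p = 0.896). Atp5g3, the brightest of the 3 probes, had 0.43, 0.25, -0.47 and -0.54 and a mean of -0.084 (limma adjusted p = 0.855). None of the 3 was called, and Atp5g3 split by array pair.

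**Figure D2:**
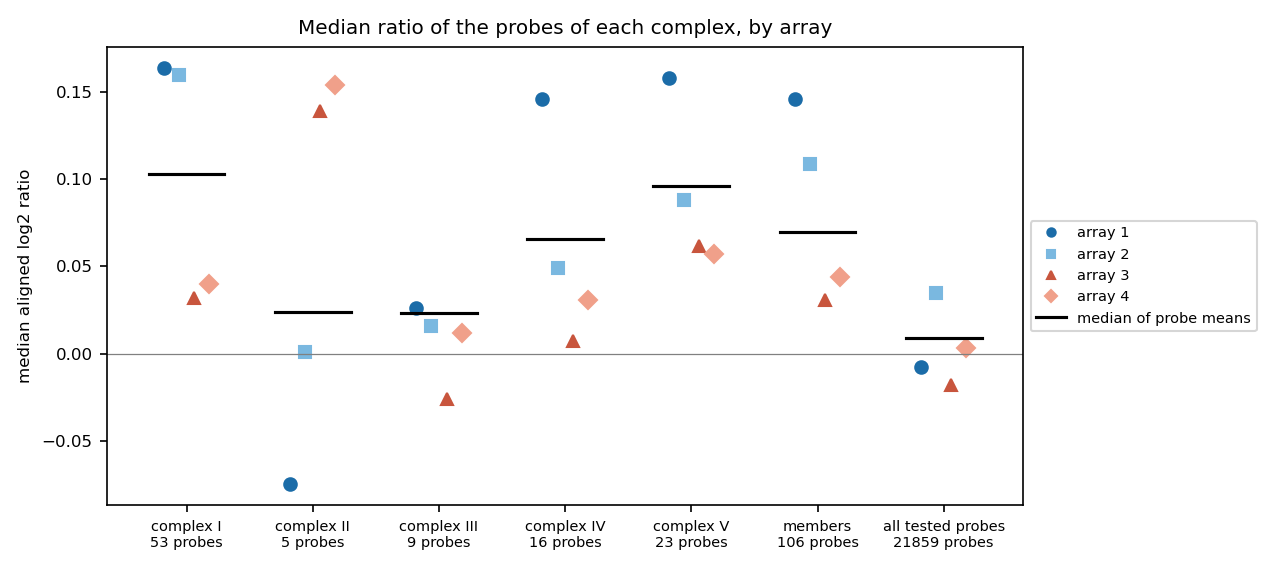
Median aligned log2 ratio (y axis) of the tested probes of each complex, of all members and of all tested probes (x axis), with 1 point per array and a black bar for the median of the probe means. Complexes I, IV and V are higher on arrays 1 and 2 and complex II on arrays 3 and 4, and the bars run from 0.023 for complex III to 0.10 for complex I.

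Set side by side, the medians of the 5 complexes ranged from 0.023 to 0.10, a narrower span than that of the array medians within complexes I, II, IV and V. Within complex I the array medians ran from 0.032 to 0.16 and within complex II from -0.075 to 0.15, while complex III had the narrower span of -0.026 to 0.026. In the dye-balanced pairing, 20 of 53 probes of complex I were called higher, 1 of 5 of complex II, 0 of 9 of complex III, 3 of 16 of complex IV and 8 of 23 of complex V, where 19.4% of all tested probes were. The difference between complexes was not tested, since their members share all 4 hybridisations.

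The split between arrays 1 and 2 and arrays 3 and 4 was also read on the unturned dye ratios. In the aligned data these pairs differ both in dye orientation and in labelled replicate, which cannot be told apart. Before turning, 21 of the 106 member probes had more Cy5 than Cy3 on all 4 arrays, where 13.1% of all tested probes did, and 8 had less on all 4, where 8.6% did. All 5 member probes with a mean log2 intensity over 16 were among the 21. They belong to Atp5b, Atp5g3, Uqcrh, Cox6a1 and Atp5c1, though the other Atp5b probes, at 14.69 and 12.51, had less Cy5 on all 4 arrays. The median of the 5 was 0.34 on arrays 1 and 2 and -0.32 on arrays 3 and 4 after turning. Among the 16 member probes between 10 and 12, the corresponding medians were 0.18 and 0.15. They were 0.12 and 0.049 for the 36 probes between 12 and 14, and 0.118 and 0.052 for the 39 between 14 and 16. The 10 dimmest, under 10, also split, with 0.043 and -0.075, and 4 of them had more Cy5 on all 4 arrays. Cytosolic ribosomal protein genes, also very bright, had more Cy5 on all 4 arrays for 62 of 80, with array medians of 0.44, 0.26, -0.27 and -0.29. Over the member probes the Cy5 over Cy3 ratios of arrays 1 and 2 correlated at 0.77 and those of arrays 3 and 4 at 0.85, and the other pairs at -0.13 to 0.06. These correlations are across probes, which share arrays and dyes and are not replicates.

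**Figure D3:**
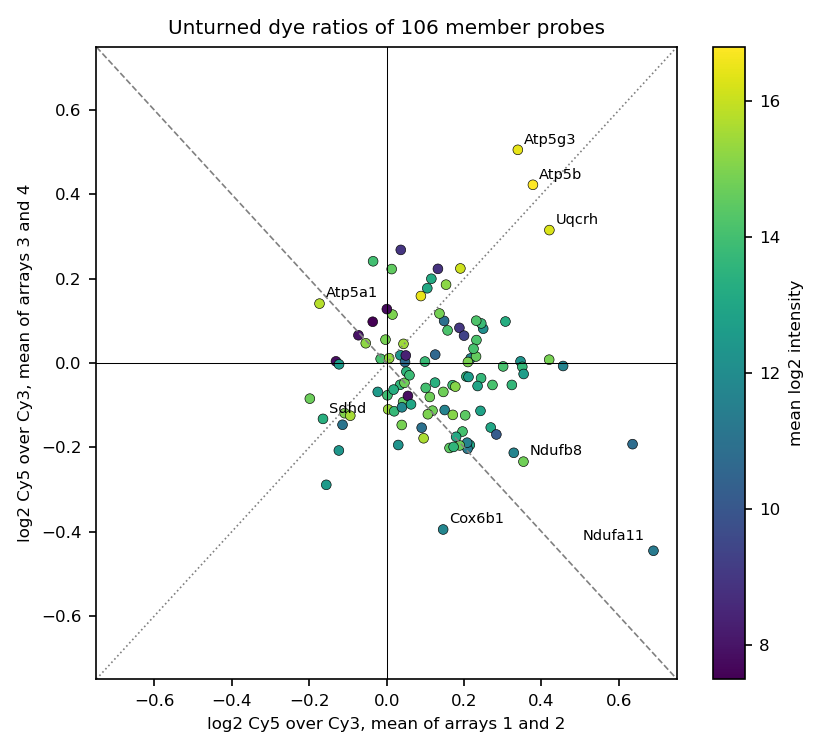
Unturned log2 Cy5 over Cy3 ratio of the 106 tested member probes, mean of arrays 1 and 2 (x axis) against mean of arrays 3 and 4 (y axis), coloured by mean log2 intensity. On the dashed line the 2 means are opposite in sign and equal in size, on the dotted line they are equal. By their brightest probes, Ndufa11 and Cox6b1 lie near the dashed line, and Atp5b, Atp5g3 and Uqcrh near the dotted one.

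Several genes carried more than 1 tested probe. Of 22 such genes, 14 had probe means of 1 sign and 8 of both signs, and the median span between the probes of a gene was 0.062. In at least 5 of them (Atp5h, Cox7a2, Ndufa11, Ndufa8 and Ndufs6) a pair of probes shared 20 to 54 bases, 4 of these being among the 14, so such pairs are near-repeat readings. Probes that span an intron were not compared for overlap. No gene had probes called in opposite directions. The widest span was that of Ndufa3, an accessory subunit, with 0.23 by a probe at a log2 intensity of 11.65 and -0.069 by a probe at 7.96. Ndufb8 gave 0.29 by the probe at 14.77 and 0.016 by the probe at 8.35. Ndufc1 gave 0.16 at 14.1, 0.21 at 12.98 and -0.067 at 7.5. In all 3 genes the probe near 0 was the dim one. This did not hold for Ndufab1, with the next widest span, which gave 0.043 at 13.65, 0.21 at 11.32 and -0.045 at 8.85. A further 7 dim probes, for Ndufab1, Ndufs1, Ndufs4, Sdhc, Uqcrq, Atp5f1 and Atp5j2, could not be tested, and each of these genes had another probe that could.

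**Figure D4:**
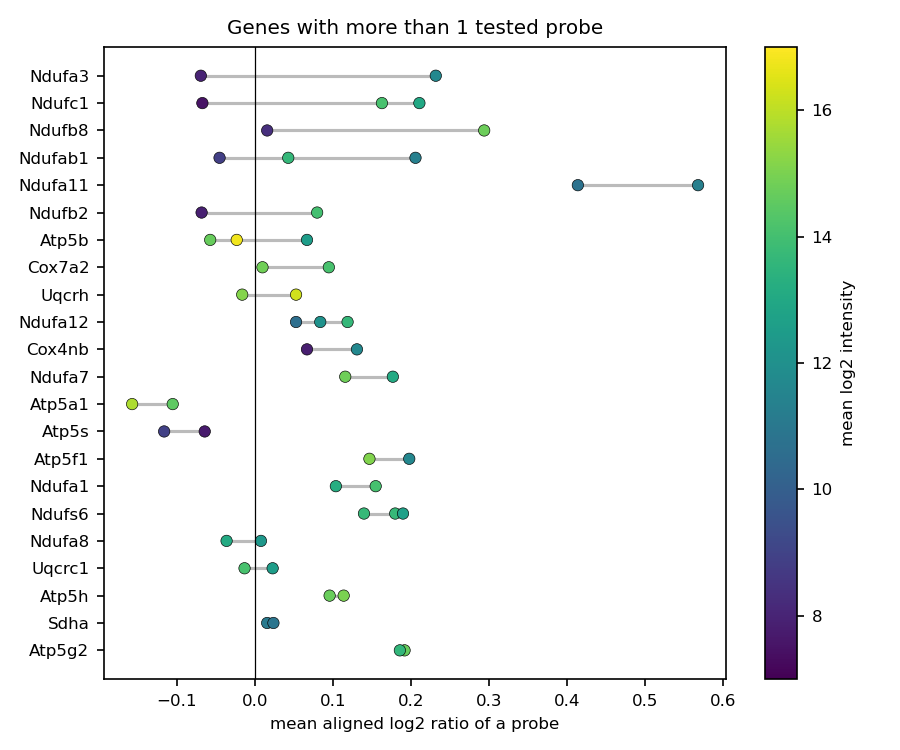
Mean aligned log2 ratio (x axis) of every tested probe of the 22 genes with more than 1 (y axis), coloured by mean log2 intensity and joined by a grey line per gene. The widest spans, in Ndufa3, Ndufc1 and Ndufb8, run from a dim probe near 0 to a bright one above it, while the Ndufa11 probes stand at 0.41 and 0.57.

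A few members carry the name but encode no subunit. By their current names, Cox4nb is Emc8, a part of an endoplasmic reticulum complex, Ndufa12l is the complex I assembly factor Ndufaf2, Ndufaf1 is another such factor and Atp5s is Dmac2l. Their means were 0.13, 0.21, 0.023 and -0.12, and none was called. Without these 4 genes the median over the remaining 100 tested probes was 0.074.

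Apart from the hypoxia and glycolysis genes, related gene lists gave few calls. None of 23 assembly factors outside the rule was called in limma, with 0 at an unadjusted p under 0.05, a median of 0.091 and 21 above 0. The 10 listed respiratory chain genes outside the rule, among them Cyc1, Usmg5 and the cytochrome c genes, had 0 calls, 0 at an unadjusted p under 0.05 and a median of 0.012. Of the genes of the mitochondrial genome, 3 had probes, with 0 calls, 1 at an unadjusted p under 0.05 and a median of 0.12. The 78 mitochondrial ribosomal protein genes had a median of 0.11, with Mrps6 called higher (0.42, limma adjusted p = 0.0108) and Mrps12 lower (-0.39, limma adjusted p = 0.0257). At an unadjusted p under 0.05, 7 of them were above 0 and 1 below. In the 18 genes of the tricarboxylic acid cycle and its entry, 1 was called, Idh3a, a subunit of isocitrate dehydrogenase, which was lower at -0.38 (limma adjusted p = 0.0223). Unadjusted, 1 was above and 1 below 0 at p under 0.05. Of 18 tested regulators of mitochondrial genes, Nfe2l2, a factor of the oxidative stress response, was called lower at -0.36 (limma adjusted p = 0.0288). Unadjusted, 2 regulators were above and 1 below 0 at p under 0.05. The list of hypoxia and glycolysis genes had a median of -0.17 over 27 genes. Of these, 2 were called higher, Aldoc (0.68) and Ndrg1 (0.57), where 2.32% of all tested probes were. Called lower were 3, Bnip3 (-0.47), P4ha1 (-0.38) and Pdk1 (-0.36), where 3.35% of all tested probes were. At an unadjusted p under 0.05, 2 were above 0 and 12 below, where 8.28% of all tested probes were above and 9.14% below. The 80 cytosolic ribosomal genes had 0 calls, 2 above and 1 below 0 at an unadjusted p under 0.05 and a median of 0.033.

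Markers of other cell types moved in the same arrays, where 2.32% of all tested probes were called higher and 3.35% lower. All 13 visceral endoderm genes were called lower, between -2.04 and -0.34 with a median of -0.70. Of 9 endothelial genes, 4 were called lower and all lay below 0. Of 5 tested primitive erythroid genes, 3 were called higher, up to 1.35, and the lowest, Hba-a1, lay at -0.28, below 0 on all 4 arrays and not called (limma adjusted p = 0.119). The 12 posterior and tail bud genes had a median of 0.17, with 10 above 0 and 2 below. Of the 12, 2 were called higher and 2 lower, the latter being Cdx2 and Cdx4. The alignment fixed the direction of Cdx4 and not that of Cdx2. Cdx2 had -0.773, -0.505, -0.452 and -0.448 on arrays 1 to 4, with a mean of -0.544 (limma adjusted p = 0.00198). The part of these cell types in the member ratios was not tested.

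Promoter letters played no part in the selection. RefSeq promoter windows of 300 bases (250 before to 50 after the start, GRCm38.p6) were found for 68 of the 83 genes, and motifs were searched on both strands. The NRF1 core CGCATGCG was in 13.2% of the matched members and in 2.1% of all 27025 genes with a window. The ETS core CCGGAAG was in 25.0% against 9.9%, and the YY1 core AAGATGGCG in 10.3% against 1.6%. The CCAAT box, CCAAT, was in 42.6% against 41.1%, and the TATA box, TATAAA, was in 8.8% against 15.7%. Median GC content was 57.7% against 52.7%. By complex, the NRF1 core was in 2 of 34 matched genes of complex I, 0 of 3 of complex II, 2 of 4 of complex III, 1 of 12 of complex IV and 4 of 15 of complex V. A match is a run of letters and not evidence of binding.

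The bases before the starts of Ndufb8 and Cox6b1, the highest members of complexes I and IV after Ndufa11, are printed to set the letters of their promoters side by side. The first is at chr19:44555443-44555692 and the second at chr7:30626115-30626364, both GRCm38.p6, minus strand, 250 bases. Capitals mark the CCAAT box and the ETS core, each on either strand.
Ndufb8: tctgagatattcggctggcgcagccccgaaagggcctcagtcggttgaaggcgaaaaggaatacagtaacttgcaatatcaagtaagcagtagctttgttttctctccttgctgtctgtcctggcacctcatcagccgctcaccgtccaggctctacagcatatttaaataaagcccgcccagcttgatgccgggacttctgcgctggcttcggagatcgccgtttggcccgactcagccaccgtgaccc
Cox6b1: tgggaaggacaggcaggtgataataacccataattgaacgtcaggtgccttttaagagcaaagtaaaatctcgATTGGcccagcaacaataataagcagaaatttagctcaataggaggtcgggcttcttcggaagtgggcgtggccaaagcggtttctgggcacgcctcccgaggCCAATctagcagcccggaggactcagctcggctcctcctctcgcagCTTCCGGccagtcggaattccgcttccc

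None of the 5 motifs is in the Ndufb8 stretch. Cox6b1 holds the CCAAT box at 2 places, beginning 177 and 74 bases before the start, and the ETS core once, at 28.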

How the data were processed

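Posterior tissue of 2 genotypes was co-hybridised on 4 arrays of 2 colours. The submitters' processing notes name Agilent Feature Extraction 9.5.3. The deposited scanner files hold each spot's intensity in Cy3 and Cy5 with its local background, and a log10 ratio of Cy5 over Cy3. The authors' series table also holds log10 values, equal within 1e-05 to the scanner ratio on arrays 1 and 3 and to its negative on arrays 2 and 4, with column medians of 0. Its direction carries the same label conflict. Between 103 and 167 outlier spots per array were left out.

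Intensities were corrected by normexp (offset 50) and loess in limma 3.58.1 (R 4.3.3), controls at weight 0, and spots of a probe averaged. The filter on dim probes followed the aligned channels. Means of arrays 1 and 2, and of 3 and 4, were fitted with lmFit and eBayes (n = 2, prior degrees of freedom 17, residual 1), adjusted by Benjamini-Hochberg over 21859 probes, threshold 0.05. Standard errors are thus largely pooled over probes, and p-values cover the spread among these hybridisations alone, possibly a technical one. The number of arrays limits the precision.

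A gene stands by its brightest tested probe. Named were called members, the 3 highest and 3 lowest of each complex, isoform families, catalytic subunits and dim genes, and called genes of related lists. The members and lists were chosen with earlier results of these data known. The fit was tested on simulated data. Promoters were matched by current symbol, and probe positions are mm8 as in the files. Alternatives covered pairing, labels, normalisation, filters and single arrays. Ndufa4l2 was named in a list and matched no probe. The values of 1 member are counted in the summaries and not reported here singly.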

Additional observations from a re-analysis of the deposited data

Results flagged for a closer look

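In 2 of 49 sets of 4 array values examined (43 named members and 6 medians), 1 array lay far from the other 3 by Dixon's criterion, and chance flags about 1 set in 20. Uqcrfs1 had 0.098 on array 3, with the others between 0.016 and 0.028. Cox4nb had 0.080 on array 3, with the others between 0.14 and 0.15.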

How the results depend on the processing

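The median of member probes stayed above that of all tested probes in each alternative run, by 0.022 (arrays as labelled) to 0.39 (median centring). The 2 higher and 0 lower probes became 32 and 2 with the exchange pairing (arrays 1 with 3, 2 with 4) and 45 and 4 with the third pairing (1 with 4, 2 with 3). Of all 21859 tested probes, 507 were called higher and 733 lower in the main run. These became 4245 and 3942 with the exchange pairing and 5812 and 5175 with the third. The higher count was 0 as labelled, with median centring and with no filter on dim probes, and 1 with arrays 1 and 4 as labelled, with the scanner log ratio, with the series table and with 1 value per gene (its probes' mean, or its brightest probe, the latter added after the data were seen). Over all tested probes the higher counts of the first 3 runs were 4 of 21115, 0 of 21859 and 11 of 41174. Those of the next 3 were 259 of 21805, 646 of 21859 and 646 of 21859. By gene they were 380 (mean) and 433 (brightest) of 14953. Leaving out single arrays gave 0 to 1 higher, Ndufa11 being lost without array 1, where 100 to 372 of all tested probes were called higher. As labelled, the medians of all members, complex I and complex V fell to 0.012, 0.012 and 0.021. Median centring moved the median of all tested probes to 0.23 and those of all members and of complexes I to V to 0.62, 0.63, 0.51, 0.60, 0.61 and 0.65. Without single arrays, complex III ranged from -0.002 (without array 4) to 0.031 and complex II from -0.005 to 0.071. Of 43 named members, 14 more passed with the exchange pairing and 16 more with the third. In the exchange pairing 19.4% of all tested probes were called higher and 18% lower, and in the third 5812 and 5175 of 21859. The 43 were named partly for having the highest or lowest ratios of their complex, so these counts do not describe all members. Causes were not tested. Signal over background limits what can be said of the 4 dim genes.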
